A study of Caenorhabditis elegans with 12 samples.

Results

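Innexin genes encode the subunits of gap junctions in C. elegans, and those listed under 10 names, inx-18, unc-7, unc-9, che-7, inx-3, inx-4, inx-7, inx-10, inx-14 and inx-19, were followed in RNA from sorted BAG neurons. They were found by gene symbol among the 22542 genes with normalized counts, and 9 of the 10 names had a row. No row carried the symbol inx-4, which in C. elegans nomenclature is another name of che-7, so the 10 names are taken here to stand for 9 genes, all of them measured; the tables used for names do not list this synonym. The 25 innexins in the files run from inx-1 to inx-22 without inx-4, plus che-7, eat-5, unc-7 and unc-9. All 9 passed the filter on low values, which asked for 6 or more libraries to reach a CPM of 1, as did 12096 of the 22542 genes. Of the 25 innexins, 19 passed the filter.

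BAG neurons are paired ciliated head neurons that sense CO2 and O2. Day 1 adults of both genotypes carried npr-1(ad609), which removes the neuropeptide receptor NPR-1, and ynIs64[flp-17p::gfp], a transgene whose flp-17 promoter drives GFP in BAG. The mutants, labelled strain AX7207 in the deposited records, also carried arcp-1(db1082), a premature stop codon in the gene for the dendritic ankyrin-repeat protein ARCP-1. The controls, strain AX7210, did not. The study's strain list has AX7208, not AX7207, for a strain of the mutant genotype. Whether AX7208 is the strain sequenced is not stated. Animals were grown at 20 °C on OP50, about 4000 GFP-positive cells were sorted per sample, and 6 Smart-seq2 libraries were made for each genotype. Because both groups lack NPR-1, no library speaks for animals with that receptor, and each genotype is a single strain.

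Gap junctions let ions and small molecules pass directly between neighbouring cells. In C. elegans they are built from innexins, which are unrelated in sequence to the connexins of vertebrates. Innexins of both cells dock to form a channel, and undocked ones can act as hemichannels in the membrane of a single cell. UNC-7 and UNC-9 couple the command interneurons to motor neurons. In dauer larvae an electrical synapse between the interneuron AIB and BAG uses CHE-7 on the BAG side. Other innexins are best known from muscle, pharynx, epidermis, intestine or germline, so a bulk library of sorted cells can hold their transcripts from more than one source.

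Recovered reads per library ranged from 374550 to 8683395 in mutants, with a median of 4029926.5, and from 540884 to 7594719 in controls, with a median of 5335269. Mutant replicates 3 and 4 and control replicates 1 and 5 had under 3000000 reads, and 1 read was worth between 0.294 and 6.40 normalized counts. The mutated gene itself, arcp-1, had 704 to 4277 normalized counts in mutants (median 2500) and 3288 to 12360 in controls (median 8177), so its transcript was present in every mutant library and the ranges overlapped. Of the 6 BAG markers, 0 differed between genotypes in limma, and their summed level was 885 to 4482 TPM in mutants and 825 to 3929 TPM in controls, with replicate 1 lowest in both genotypes. The neuropeptide gene flp-10 was the marker near 0, with 0 to 8.82 normalized counts in mutants and 2.40 to 10.8 in controls. Markers of other tissues were present at high levels in both groups: the 5 body wall muscle genes summed to 2626 to 10378 TPM in mutants and 2147 to 10508 TPM in controls, and the 5 hypodermal genes to 4180 to 15385 and 6503 to 26347 TPM. In such bulk samples, fewer cells of a type and less RNA per cell cannot be told apart. Model p-values below weigh an effect against the spread between these biological replicates. Permutation p-values give the share of library assignments with a difference at least as large.

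Of the innexins, inx-18 was higher in arcp-1 mutants, and no other member passed the test. In limma on log2(normalized count + 1), with Benjamini-Hochberg adjustment over all 12096 genes, 1 of the 9 genes was higher in arcp-1 mutants, 0 were lower and 8 did not pass an adjusted p of 0.05, while 1.66% of all genes tested were called, 1.33% higher and 0.331% lower. The members' median log2 fold change was −0.23 (−0.29 without inx-18), beside −0.025 over all genes tested. The log2 fold changes were positive for 3 members and negative for 6, and 2 members had an unadjusted p under 0.05.

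inx-18 (WBGene00002140, chromosome IV, 606355 to 614021, WS255, plus strand) encodes an innexin of neurons and of body wall muscle, where it contributes to electrical coupling. Its exons overlap those of no other annotated gene. It had 198 normalized counts in the lowest mutant library, a median of 704 and 1298 in the highest, against 13.9, 16.8 and 46.9 in controls. By replicate 1 to 6 the mutants held 198, 791, 608, 649, 1298 and 758 normalized counts, and the controls 46.9, 13.9, 17.3, 16.3, 25.5 and 15.3. The groups did not overlap, as for 1.95% of all genes tested, and the lowest mutant, replicate 1, lay 4.22-fold above the highest control, also replicate 1.

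The recovered reads behind inx-18 numbered 95 to 2282 per mutant library and 6 to 45 per control library, so no control library was at 0. The limma fold was 29.3 (95% interval 16.5 to 51.9; log2 fold change 4.87, standard error 0.39, adjusted p = 2.38e-06), and its p ranked 6th among all genes tested. An exact two-sided permutation test over the 924 assignments of libraries gave p = 0.00216, the smallest it can give (higher in 6 of 6 mutant libraries). Mean TPM rose from 8.09 ± 3.23 (SD, n = 6) in controls to 268 ± 139 in mutants. This moved inx-18 from rank 8083 to rank 436 among 46766 genes.

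**Figure D1:**
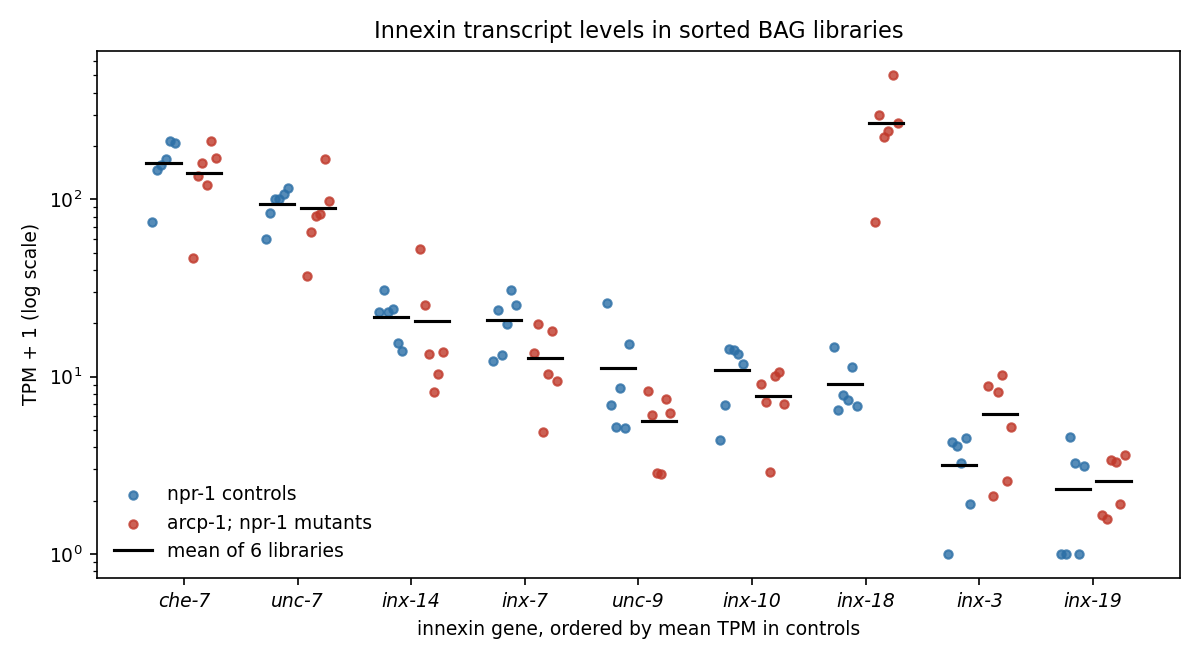
TPM + 1 (log axis) of the 9 innexin genes in each library, controls in blue and arcp-1 mutants in red, with black bars at the means of 6 libraries and genes ordered by control mean. The red inx-18 points lie above all blue inx-18 points, while the ranges of every other gene overlap between genotypes.

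Likeness to inx-18 was measured over the 2884 genes averaging 100 or more normalized counts. The 5 genes most like it over 12 libraries (Pearson r of log2 values) were unc-89 (r = 0.98), cdr-7 (0.98), F46H5.7 (0.97), atn-1 (0.97) and emb-9 (0.97). unc-89 encodes a giant protein of the muscle sarcomere, atn-1 encodes alpha-actinin and emb-9 a type IV collagen that muscle secretes. These correlations are a description across libraries that differ in depth and genotype. With each genotype's mean removed, r was 0.77 for unc-89, 0.81 for cdr-7, 0.66 for F46H5.7, 0.55 for atn-1 and 0.61 for emb-9. unc-89 averaged 2901 ± 1281 normalized counts (SD, n = 6) in mutants and 236 ± 40.8 in controls, and cdr-7 339 ± 132 and 22.2 ± 9.21.

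Of 5 listed body wall muscle markers (myo-3, unc-54, unc-15, unc-27 and tnt-2), 0 were called between genotypes and all 5 had a negative log2 fold change, with a median of −0.15. Outside this list, unc-89 and atn-1 were higher in mutants, with log2 fold changes of 3.51 and 2.82 (limma, adjusted p = 2.05e-06 for each). Both were picked above for their likeness to inx-18 across the genotypes. That choice favours genes that differ between genotypes as inx-18 does, so these p-values are not a separate test. With the mean level of the 5 markers as a covariate, an alternative chosen after seeing the data, the inx-18 log2 fold change was 4.70 (limma, adjusted p = 3.81e-05). With the BAG marker level as the covariate it was 4.95 (adjusted p = 6.49e-07). The part of muscle RNA in the inx-18 values was not tested. The fit on the 5 markers cannot show it, because none of them was called between genotypes while unc-89 and atn-1 were.

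The neuronal innexins che-7 and unc-7 had the highest mean TPM of the 9 members in controls and did not pass the test between genotypes. unc-7 (WBGene00006747, chromosome X, 15120975 to 15147742) had 149, 335 and 667 normalized counts in the lowest, median and highest mutant library and 310, 389 and 458 in controls. The groups overlapped, with mutant replicate 1 lowest and mutant replicate 5 highest of all 12. The 95% interval of its log2 fold change was −0.78 to 0.39 (limma, adjusted p = 0.870; exact permutation p = 0.567).

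che-7 (WBGene00000488, chromosome V, 7961539 to 7968899) encodes the innexin of the dauer AIB to BAG synapse. It had 132, 420 and 576 normalized counts in the lowest, median and highest mutant library and 267, 433 and 571 in controls. Replicate 1 was the lowest library in both groups, and the ranges overlapped. The 95% interval was −0.89 to 0.42 (limma, adjusted p = 0.863; exact permutation p = 0.597). Without mutant replicate 1 the log2 fold change of che-7 was 0.058 and that of unc-7 0.032, so the sign of both rested on that library. The exons of unc-7 and che-7 overlap annotated noncoding RNAs on the other strand, whose reads cannot be told apart in unstranded counts.

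unc-9 (WBGene00006749, chromosome X, 13212390 to 13216707) encodes the partner of UNC-7 in locomotor circuits and also works in body wall muscle. Its levels were far lower, at 6.13, 17.7 and 24.7 normalized counts in the lowest, median and highest mutant library and 12.7, 21.6 and 108 in controls. The groups overlapped, the highest value was in control replicate 1, and mutant replicates 3 and 4 held 1 read each. The log2 fold change of −0.94 had a standard error of 0.55 and a 95% interval of −2.10 to 0.22 (limma, adjusted p = 0.625; exact permutation p = 0.136).

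inx-7 (WBGene00002129, chromosome IV, 5943981 to 5946754) had a negative log2 fold change that did not pass the adjusted threshold. It had 12.8, 36.1 and 60.3 normalized counts in the lowest, median and highest mutant library and 37.5, 63.9 and 89.2 in controls. The ranges overlapped, with 3 mutant libraries, replicates 3, 4 and 6, below the lowest control. These held 2, 5 and 71 reads. The log2 fold change of −0.82 had a standard error of 0.36 and a 95% interval of −1.58 to −0.049 (limma, unadjusted p = 0.0384, adjusted p = 0.435; exact permutation p = 0.0411). With the body wall muscle level as a covariate, chosen after seeing the data, it was −1.25 with an adjusted p of 0.0497 (limma). Over the other alternatives it stayed above the threshold. The exons of inx-7 overlap those of pfkb-1.2.

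inx-10 (WBGene00002132, chromosome V, 9204703 to 9207467) encodes an innexin that contributes to coupling of body wall muscle. It had 6.40, 24.2 and 30.7 normalized counts in the lowest, median and highest mutant library and 14.4, 36.7 and 42.3 in controls. The ranges overlapped, and the lowest value was 1 read in mutant replicate 3. The log2 fold change of −0.50 had a 95% interval of −1.41 to 0.41 (limma, adjusted p = 0.765; exact permutation p = 0.273). Its exons overlap those of asp-2.

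inx-19 (WBGene00002141, chromosome I, 2451908 to 2464637), also called nsy-5, encodes an innexin of the embryonic network that sets the asymmetry of AWC olfactory neurons. It was the least abundant member, with 1.47 to 7.25 normalized counts in mutants (median 4.20) and 0 to 8.86 in controls (median 2.71). Control replicates 1, 2 and 5 were at 0, no library had more than 22 reads, and the groups overlapped. Its log2 fold change of 0.75 (limma, adjusted p = 0.796; exact permutation p = 0.310) became −0.14 in edgeR, −0.056 in DESeq2 and −0.30 without the 4 libraries of fewest reads. Its direction therefore depended on the setting.

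inx-3 (WBGene00002125, chromosome X, 5996156 to 5998243) encodes an innexin widely used in the embryo and in the pharynx. It had 2.94, 15.4 and 24.5 normalized counts in the lowest, median and highest mutant library and 0, 6.66 and 8.49 in controls. In 4 mutant libraries it exceeded every control, in the other 2 it did not, and control replicate 1 was at 0. Among those 4, mutant replicates 3 and 4 reached 19.2 and 24.5 normalized counts on 3 and 4 reads. The log2 fold change of 1.23 had a 95% interval of −0.23 to 2.69 (limma, adjusted p = 0.600; exact permutation p = 0.110). Its exons overlap those of F22F4.9, a gene without a deposited TPM value.

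inx-14 (WBGene00002136, chromosome I, 7350312 to 7352235) encodes a germline innexin that pairs with those of the gonadal sheath. It had 18.4, 32.9 and 132 normalized counts in the lowest, median and highest mutant library and 32.2, 54.6 and 72.2 in controls. The groups overlapped, and mutant replicate 1 held both the most inx-14 and the most germline transcripts: 9 germline and oocyte markers summed to 1031 TPM there, 208 to 534 TPM in the other mutants and 342 to 920 TPM in controls. The part of germline RNA in the inx-14 values was not tested. The log2 fold change of −0.35 had a 95% interval of −1.25 to 0.55 (limma, adjusted p = 0.845; exact permutation p = 0.481). Its exons overlap those of kbrl-1.

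**Figure D2:**
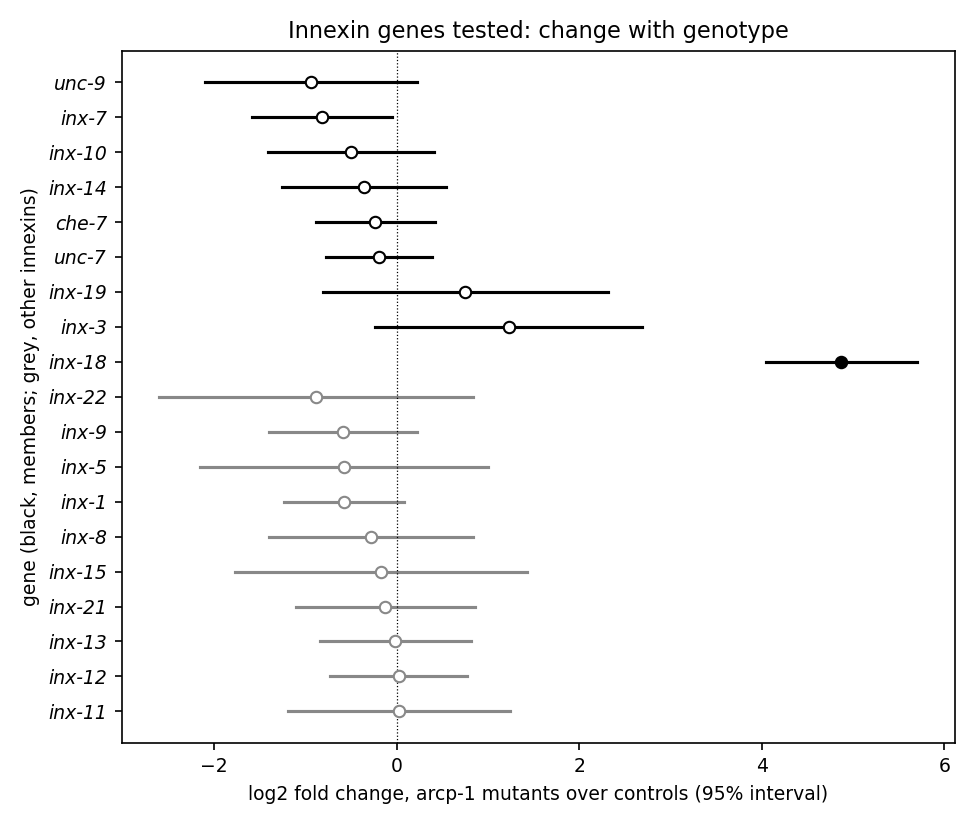
Log2 fold change (arcp-1 mutants over controls, limma, 6 libraries each) with its 95% interval for the 19 innexin genes tested, members in black and other innexins in grey, filled where the adjusted p was under 0.05. inx-18, at 4.87, is the filled point, and the interval of every other gene except inx-7 (−1.58 to −0.049) spans 0.

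The rest of the family gave no call. Of 10 other innexins tested, 0 passed in limma, in edgeR or in DESeq2, 0 had an unadjusted p under 0.05 in limma, and their median log2 fold change was −0.22 with 2 positive. The 5 most abundant of them were inx-8, inx-12, inx-13, inx-1 and inx-21. inx-8, a gene of the gonadal sheath, averaged 51.8 ± 25.5 TPM (SD, n = 6) in mutants and 70.9 ± 44.8 in controls. In controls its level did not differ beyond the spread from that of unc-7, which was higher in 4 of 6 libraries, and in control replicate 1 inx-8, at 119 TPM, exceeded both che-7 (73.4) and unc-7 (58.9). inx-12 and inx-13, which act in excretory and epidermal cells, averaged 29.3 ± 10.7 and 22.3 ± 9.89 TPM over all libraries (SD, n = 12), with log2 fold changes of 0.022 (95% interval −0.73 to 0.77) and −0.011 (−0.83 to 0.81). inx-1, an innexin of neurons and muscle, had 16.9 ± 5.21 TPM in mutants and 26.6 ± 11.5 in controls, with a log2 fold change of −0.57 (95% interval −1.23 to 0.085; limma, adjusted p = 0.574). inx-21, a germline innexin, had 12.7 ± 10.9 and 11.8 ± 3.82 TPM. The 6 innexins that missed the filter, inx-2, inx-6, inx-16, inx-17, inx-20 and eat-5, averaged at most 1.38 TPM over 12 libraries. inx-6, which encodes the AIB partner of CHE-7 in dauer larvae, was one of them.

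Proteins that act with innexins were also measured. Of 4 such genes, 0 passed in limma, in edgeR or in DESeq2, 0 had an unadjusted p under 0.05 in limma, and their median log2 fold change was −0.23. unc-1, the stomatin that UNC-9 gap junctions need, had a log2 fold change of −0.12 (95% interval −1.05 to 0.80). unc-24, which encodes a stomatin-like protein, had −0.34 (−1.13 to 0.45). nlr-1, a CASPR family gene that promotes gap junction formation, had −0.50 (−1.07 to 0.071), and zoo-1, the ZO-1 homologue, 0.021 (−0.49 to 0.53).

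Ordered by mean TPM, which is scaled for gene length, the innexins of the controls ran che-7 (160 ± 50.1; SD, n = 6), unc-7 (93.5 ± 19.8), inx-14 (20.8 ± 6.17), inx-7 (19.9 ± 7.23), unc-9 (10.2 ± 8.20), inx-10 (9.84 ± 4.19), inx-18 (8.09 ± 3.23), inx-3 (2.17 ± 1.42) and inx-19 (1.33 ± 1.54). The steps from che-7 to unc-7, from unc-7 to inx-14 and from inx-18 to inx-3 were larger than the spread of the within-library difference, and the other neighbours did not differ beyond it. che-7 ranked 668 and unc-7 1165 among 46766 genes.

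In arcp-1 mutants the order ran inx-18 (268 ± 139), che-7 (140 ± 56.0), unc-7 (87.9 ± 44.8), inx-14 (19.5 ± 16.7), inx-7 (11.7 ± 5.60), inx-10 (6.81 ± 2.82), inx-3 (5.18 ± 3.39), unc-9 (4.62 ± 2.30) and inx-19 (1.58 ± 0.963). inx-18 was first in 6 of 6 mutant libraries. The steps from inx-18 to che-7, che-7 to unc-7, unc-7 to inx-14 and inx-7 to inx-10 exceeded the spread. Among all 25 innexins, inx-18 went from rank 13 in controls to rank 1 in mutants.

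The summed TPM of the 9 members was 546 ± 222 in mutants (SD, n = 6) and 326 ± 68.5 in controls. Without inx-18 it was 278 ± 85.1 and 317 ± 70.3. Over all 25 innexins the sum was 711 ± 162 against 524 ± 30.1, and without inx-18 443 ± 31.4 against 516 ± 31.8. The share of inx-18 in the members' sum was 46.7% in mutants and 2.75% in controls.

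Ratios between innexins in the same library do not depend on the scaling of that library. inx-18 over unc-7 was 2.04 to 4.62 in mutants and 0.0511 to 0.232 in controls, and inx-18 over che-7 was 1.40 to 2.38 and 0.0283 to 0.186. Neither pair of ranges overlapped (exact permutation p = 0.00216 for each, n = 6), and the differences of the mean log2 ratios were 5.14 and 5.18. che-7 over unc-7 was 1.25 to 2.09 in mutants and 1.25 to 2.00 in controls, with a log2 difference of −0.039 (exact permutation p = 0.825). unc-9 over unc-7 differed by −0.80 on the log2 scale (exact permutation p = 0.292). These 4 ratios are the only ones computed.

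**Figure D3:**
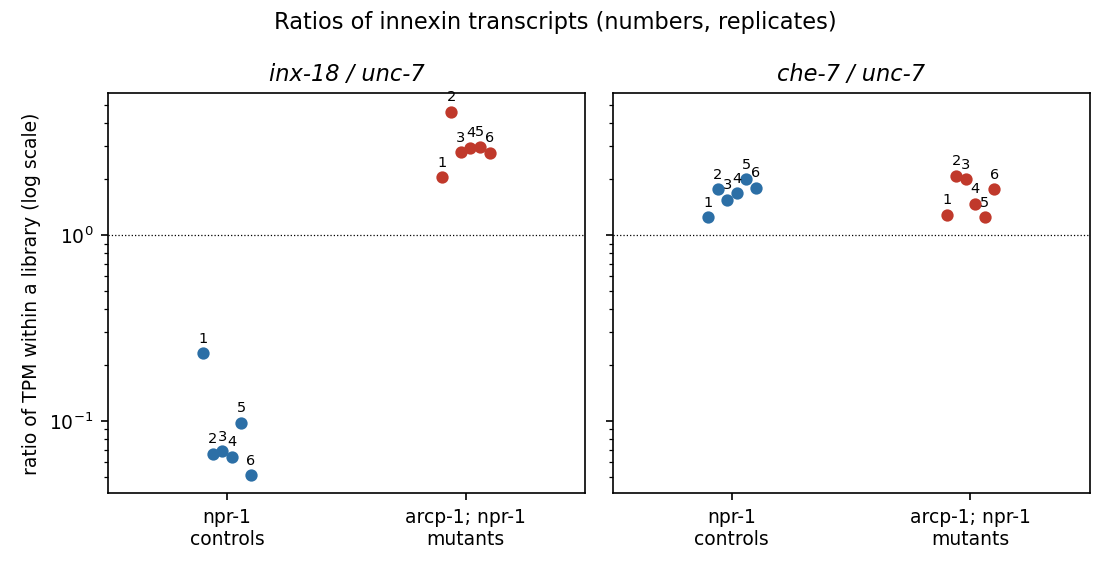
Ratio of TPM within a library (log axis) for inx-18 over unc-7 and che-7 over unc-7, with 1 point per library labelled by its replicate number and a dotted line at 1. inx-18 exceeds unc-7 in every mutant library (2.04 to 4.62) and in no control library (0.0511 to 0.232), while che-7 over unc-7 spans 1.25 to 2.09 and 1.25 to 2.00.

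The level of BAG markers varied between libraries within each genotype. Over all 12 libraries, 7 of the 19 innexins tested had a slope on it that passed and 12 did not. Most of these calls leaned on mutant replicate 1, as given below. For each gene a slope of its log2 level on the mean log2 level of the 6 BAG markers was fitted with genotype in the model (limma, 12090 genes, the markers left out), a fit added after seeing the data. Of the 9 members, 3 had a slope that passed, as did 8.35% of all genes (5.19% positive, 3.16% negative). Positive slopes were those of che-7 (0.87, standard error 0.12, adjusted p = 0.00135) and unc-7 (0.70, standard error 0.13, adjusted p = 0.00527). The negative slope was that of inx-14 (−0.93, standard error 0.26, adjusted p = 0.0353).

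Outside the members, inx-1 (0.68) had a positive slope in the same limma fit and inx-8 (−1.32), inx-21 (−1.09) and inx-13 (−0.89) had negative ones, with adjusted p between 0.00973 and 0.0304. Of the partner genes, unc-24 (1.00, limma adjusted p = 0.00332) and nlr-1 (0.56, adjusted p = 0.0442) had positive slopes. All 9 germline and oocyte markers had a negative slope that passed. The slope of inx-18 was 0.58 with a standard error of 0.29 and did not pass (limma, adjusted p = 0.252).

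These slopes leaned on mutant replicate 1, the library lowest in BAG markers. Without it, 1 of the 19 innexins, inx-8, kept a slope that passed (−1.99, limma adjusted p = 0.00868), where all 12 libraries gave 7, and 125 genes passed in all. che-7 then had a slope of 0.67 (adjusted p = 0.0528) and unc-7 0.58 (adjusted p = 0.125), while the slope of inx-18 was −0.089. Without control replicate 1 the slope of inx-18 was 1.01 (limma, adjusted p = 0.00662). Single other libraries also ended calls: that of inx-14 without mutant replicate 5 or control replicate 1, 5 or 6, that of inx-1 without mutant replicate 6 or control replicate 1, 5 or 6, and that of inx-13 without mutant replicate 5 or control replicate 1.

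**Figure D4:**
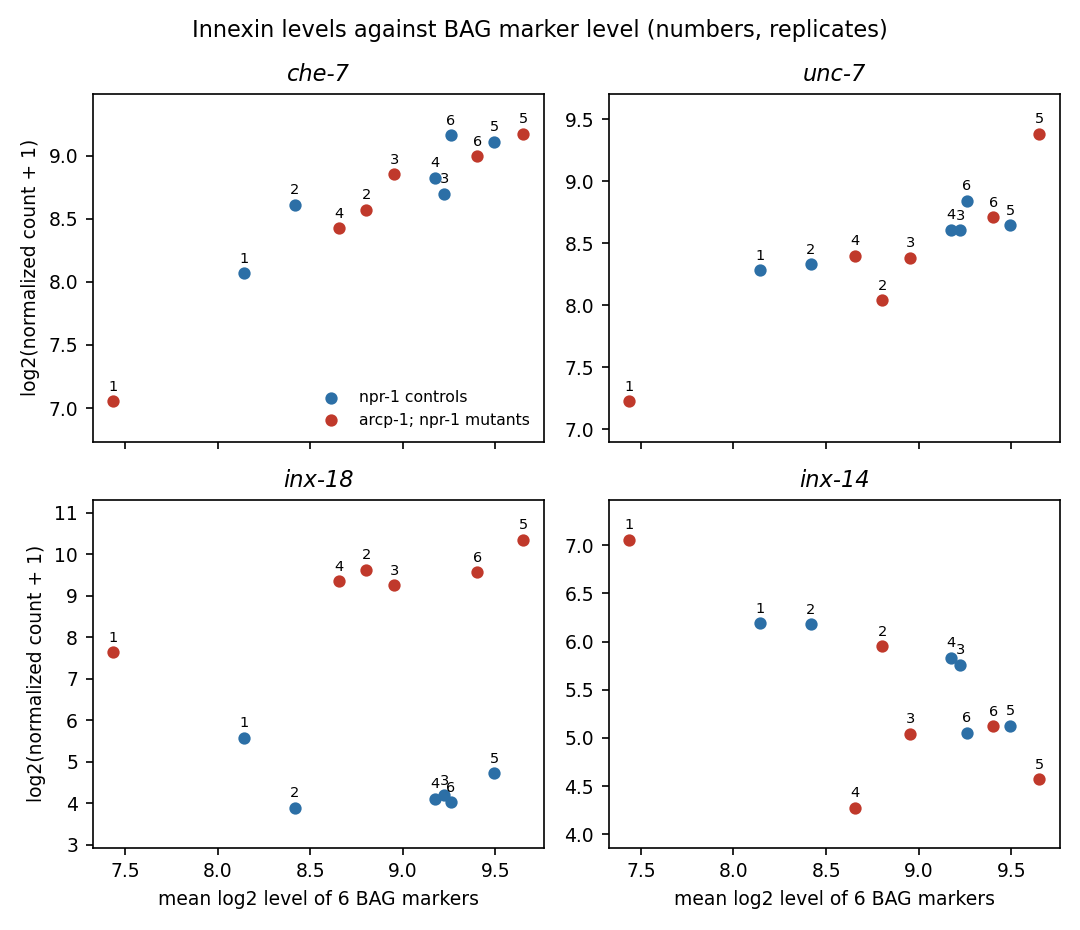
log2(normalized count + 1) of che-7, unc-7, inx-18 and inx-14 against the mean log2 level of 6 BAG markers, 1 point per library labelled by its replicate number. Mutant replicate 1 lies at the left end, low in che-7, unc-7 and, among mutants, inx-18, and highest in inx-14.

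**Figure D5:**
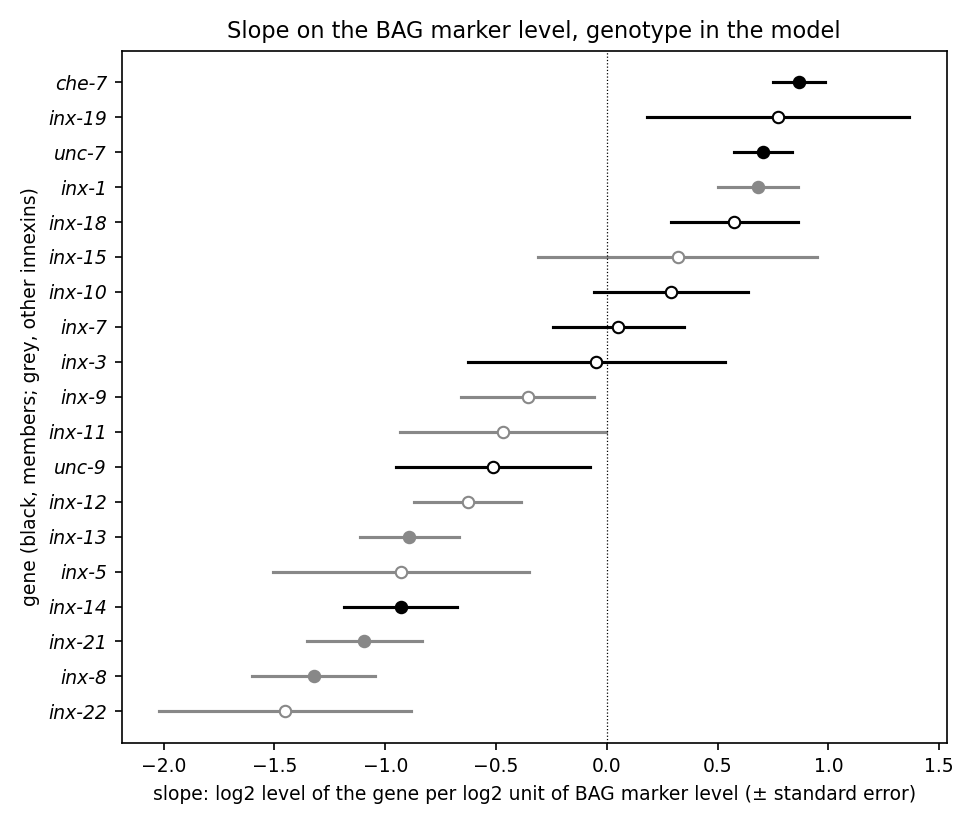
Slope of each of the 19 innexins tested on the BAG marker level (log2 per log2 unit, genotype in the model) with its standard error, members in black and other innexins in grey, filled where the adjusted p was under 0.05. che-7 (0.87), unc-7 (0.70) and inx-1 (0.68) are filled on the right and inx-8 (−1.32), inx-21 (−1.09), inx-14 (−0.93) and inx-13 (−0.89) on the left, before mutant replicate 1 is left out.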

How the data were processed

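Ribosomal reads were filtered out by the authors with Bowtie2, adapters trimmed with Trim Galore, and the rest aligned to WS255 with STAR and assigned to genes by HTSeq, ignoring strand. The deposited normalized counts (a signal unit) are reads divided by a DESeq2 size factor, for 22542 genes; 100% were whole reads within 0.001 of the value of 1 read. The deposited TPM values cover 46766 genes. The authors' deposited comparison columns (fold changes, p-values) were not used, only its symbols and loci.

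Genotypes were compared with limma 3.58.1 in R 4.3.3 (lmFit, eBayes with trend) on log2(normalized count + 1) and exact two-sided permutation tests. A pseudocount of 1 understates changes of low genes. edgeR 4.0.16 and DESeq2 1.42.0 on recovered reads and the settings named at the end were alternatives. So were other pseudocounts, no filter on low values, TPM and quantile normalization. Only the limma models were tested on simulated data. The text names every member, other innexins or partners past the threshold, the 5 most abundant other innexins, and the 5 genes most like inx-18 (averaging 100 or more normalized counts). Smart-seq2 does not tag molecules, so PCR copies count as reads. Members and lists were chosen with earlier results of these data known. Overlapping exons were taken from the Ensembl annotation of the same assembly.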

Additional observations from a re-analysis of the deposited data

Results flagged for a closer look

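Among 18 groups of 6 libraries (9 genes in each genotype), 2 held a library far from the others, where chance gives about 1 group in 20. che-7 had 132 normalized counts (448 reads) in mutant replicate 1, against 343 to 576 in the other mutants. inx-10 had 6.40 normalized counts in mutant replicate 3, which was 1 read, against 20.6 to 30.7 in the other mutants.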

How the results depend on the processing

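Over 27 alternatives the inx-18 log2 fold change stayed between 4.37 and 5.44 with an adjusted p of at most 0.00101, and between 4.66 and 5.20 with single libraries left out. The count of genes called was 201 and ran from 124 (without mutant replicate 6) to 329 (without mutant replicate 1) with 1 library left out. It was 98 over genes averaging 100 or more normalized counts, 118 with libraries centred on BAG markers, 484 with library weights and 404 in DESeq2. In settings chosen after seeing the data it was 364 with the BAG level as a covariate, 110 without the 4 libraries of fewest reads and 371 without replicate 1 of both genotypes. Members called numbered 1 in all of these and 2 with the body wall muscle level as a covariate, where inx-7 joined at −1.25. The other innexins and partners gave 0 calls in all 27. inx-19 was −0.14 in edgeR, −0.056 in DESeq2 and −0.30 without the 4 libraries of fewest reads; unc-7 (−0.40 to 0.032), che-7 (−0.37 to 0.058) and the slope of inx-18 (−0.089 to 1.01) changed sign without mutant replicate 1. Innexins with a slope numbered 1 to 7 with 1 library left out and 0 without the 2 libraries farthest from the median BAG level, where 17 genes passed in all. The cause of these shifts was not tested. By median TPM, 7 of 9 positions in the order were the same in controls and 9 of 9 in mutants.

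Whether the replicate numbers pair the libraries was not settled. Same-numbered libraries correlated at 0.039 to 0.32, over 0.1 in 2 of 6 numbers, and other mutant and control pairs at −0.24 to 0.21. Of 12 libraries, 5 correlated best with their own number. The main model has no replicate block. With the replicate number as a block, 291 genes passed, inx-18 was 4.87 (adjusted p = 9.67e-05 in limma) and 1 member was called. inx-19 had at most 3 reads in 6 of 12 libraries and unc-9 and inx-3 in 3 each.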
